A study of Homo sapiens with 6 samples.

Results

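The genes examined were 41 enzymes of purine and pyrimidine nucleotide synthesis and salvage, taken from a list of named members and matched by gene symbol and Ensembl identifier. They were 41 of the 57905 genes in the count table. All 41 were found and passed the filter on low counts, among 16622 genes tested. No measured value entered the rule, but the members and their roles were chosen with earlier results of these data known. The comparison the rule asks for is between the de novo steps and the salvage steps. ADSS and ADSSL1 are the symbols of the deposited table, and their newer names are ADSS2 and ADSS1.

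RNA-SEQ was performed on NALM6 cells, an established human line of B-cell precursor leukaemia, in 3 libraries treated with DMSO, the solvent control, and 3 libraries treated with THZ1. THZ1 binds covalently to CDK7, a kinase that phosphorylates the C-terminal domain of RNA polymerase II. The cells received 500 nM of THZ1 or DMSO and were collected after 24 h. The whole design is therefore 1 cell line at 1 dose and 1 time, and since the labels do not say whether the libraries came from separate cultures, the p-values measure only the spread between these libraries, which may be technical.

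Total counts were between 11015480 and 11164840 in the DMSO libraries and between 7876402 and 8314306 in the THZ1 libraries. Mitochondrial genes took 4.32% to 4.37% of the counts with DMSO and 12.6% to 13.6% with THZ1. With these genes left out of plain library sizes, the members had a median log2 fold change of -1.45. The B-cell precursor markers, all 9 of them detected, summed to between 3460 and 3574 CPM (counts scaled to library size by TMM) with DMSO and to between 1991 and 2054 CPM with THZ1. PAX5, VPREB1 and IGLL1 were among those lower with THZ1, and CD79A was higher (log2 fold change 1.33). RAG1 also passed as higher, but by only 0.19 and with libraries that overlapped between the treatments. Markers of T cells summed to at most 0.165 CPM with DMSO and to between 0.267 and 0.969 CPM with THZ1. The lowest of these THZ1 sums lay below a floor of 3 counts in its library (0.401 CPM). No T-cell marker that was found had more than 5 counts in any library. Markers of erythroid cells summed to at most 0.253 CPM with DMSO and to between 2.94 and 3.81 CPM with THZ1. Stromal or epithelial markers summed to at most 12.7 CPM with DMSO and to between 18.4 and 20.8 CPM with THZ1. Each of these sums was thus higher in every THZ1 library than in any DMSO library, and their part in the results was not tested. Among their genes, ALAS2 and COL1A1 were higher with THZ1 and PDGFRB was lower. The 5 myeloid markers summed to between 3.88 and 4.59 CPM with DMSO and between 17.3 and 18.4 CPM with THZ1, with CD14 and CSF1R higher, LYZ lower and MPO not past the test, and their part in the results was not tested.

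Purines are built stepwise on phosphoribosyl pyrophosphate (PRPP) until inosine monophosphate (IMP) is formed, and IMP is then turned into AMP or GMP. Pyrimidines are built as a free ring, which is joined to PRPP to give uridine monophosphate (UMP), the precursor of the cytidine and thymidine nucleotides. Salvage enzymes reach the same nucleotides from free bases and nucleosides, and breakdown enzymes remove them. Lymphoid precursors depend on this balance, and inherited loss of ADA or PNP causes immune deficiency, while IMPDH, thymidylate synthase and the folate-dependent steps are long-known drug targets in leukaemia.

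With THZ1, 28 of the 41 genes were lower, 8 were higher and 5 did not pass the test (edgeR's quasi-likelihood test, adjusted p below 0.05). Across all genes tested, 41.1% were lower, 43.5% were higher and 84.5% passed in either direction. The members' share of lower calls, 68.3%, thus stood above that of all genes and above the 47.6% of protein-coding genes, of which 36.3% were higher. Past a log2 fold change of 1.5, 19 of the 41 were lower, where 12.9% of all genes tested and 13.3% of protein-coding genes were. In the other direction 4 of the 41 were past it, where 24.6% of all genes tested and 15.3% of protein-coding genes were. The members' median log2 fold change was -1.35, beside 0.03 for all genes tested and -0.20 for protein-coding genes. The libraries of the treatments did not overlap for 38 of the 41 genes, a count close to the 84.7% of all genes without overlap. In total the 41 genes took between 0.556% and 0.567% of all counts in the DMSO libraries and between 0.242% and 0.247% in the THZ1 libraries. In bulk RNA, fewer cells of a type and less RNA per cell cannot be told apart, and each value is relative to the other RNA of its library.

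**Figure D1:**
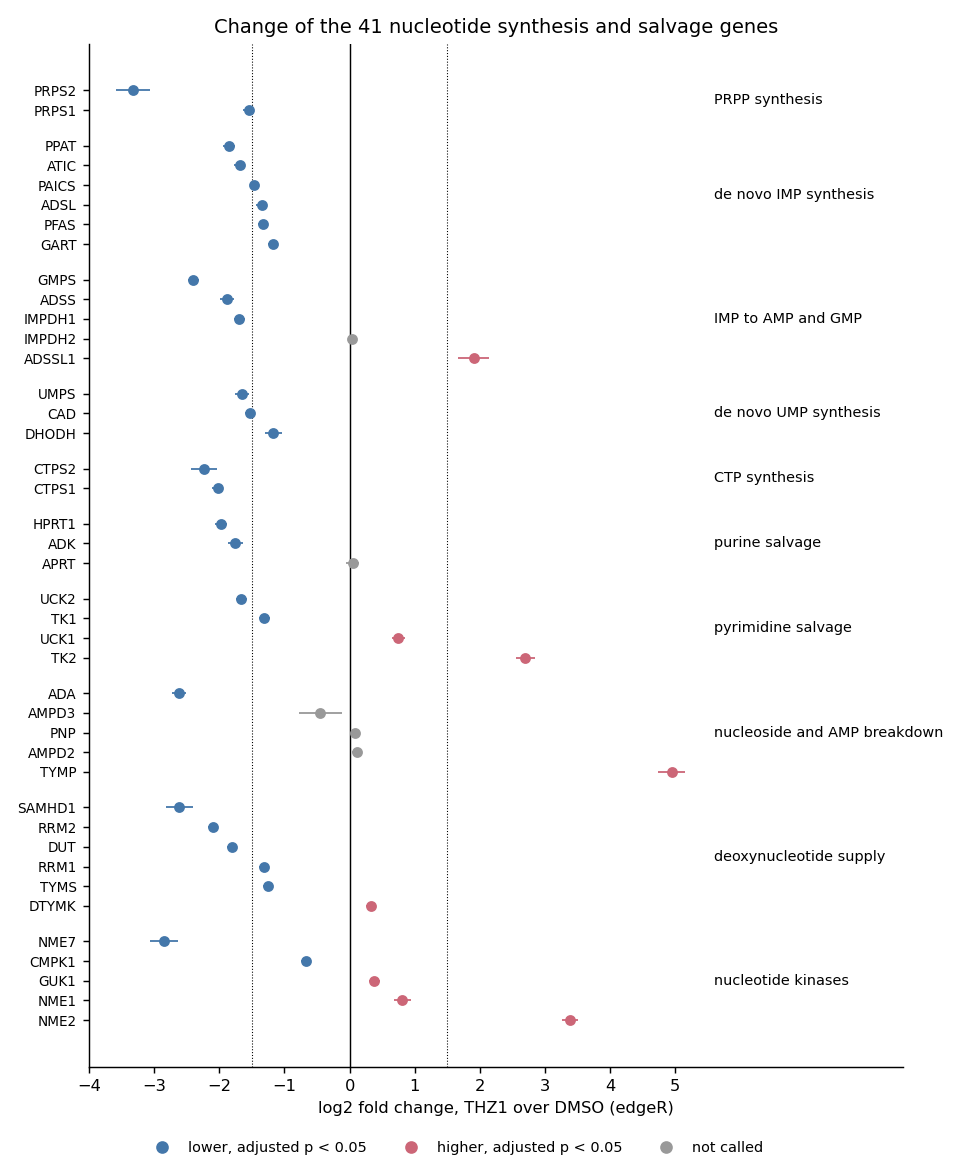
The log2 fold change of each of the 41 genes with THZ1 over DMSO (horizontal axis, points, with bars of 1 SE from the edgeR fit) is drawn by role, with dotted lines at 1.5 in either direction. All genes of PRPP, IMP, UMP and CTP synthesis lie left of 0, from -3.33 (PRPS2) to -1.17 (DHODH), while the other roles hold genes on both sides, up to 4.95 (TYMP), and the rises of DTYMK and GUK1 did not pass the test with library sizes alone.

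The steps were compared by class. Of the 16 de novo genes (IMP synthesis, conversion of IMP to AMP and GMP, UMP synthesis and CTP synthesis), 14 were lower, ADSSL1 was higher and IMPDH2 did not pass the test, with a median log2 fold change of -1.59. Of the 7 salvage genes, 4 were lower (HPRT1, ADK, UCK2 and TK1), 2 were higher (UCK1 and TK2) and APRT did not pass the test, with a median of -1.31 and a range from -1.98 (HPRT1) to 2.70 (TK2). The medians of the classes lay close together in the counts. On the deposited log2 values, which lack DHODH and TK1, limma with a pseudocount of 1 gave -1.78 for de novo and -0.94 for salvage. The salvage median in the counts is the value of TK1, in a class with genes on both sides of 0. Next to it in order stood UCK2 at -1.66 and APRT at 0.05, so without TK1 the median would lie midway between them. Without DHODH, the de novo median in the counts would be the value of UMPS, -1.65. The closeness of the class medians in the counts thus rests on TK1. Lower were 87.5% of the de novo genes and 57.1% of the salvage genes, beside 47.6% of protein-coding genes. Higher were 6.25% and 28.6%, beside 36.3%, so the salvage shares lay nearer to those of protein-coding genes. Confined to the 9 genes that build IMP and UMP, the de novo class was lower throughout, with a median of -1.47. Extended by ADA, PNP and TYMP, which feed or drain the salvage steps, the salvage class had 5 of 10 genes lower, 3 higher and a median of -0.63. These shares of 50% and 30% lay near those of protein-coding genes. The members of a class are not replicates, so no test was made between the classes.

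Within each library, the CPM of the de novo genes summed to 2361, 2354 and 2384 with DMSO and to 1058, 1053 and 1044 with THZ1. The salvage genes summed to 566.7, 543.6 and 630.4 CPM with DMSO and to 301.5, 318.2 and 302.3 CPM with THZ1. The ratio of these sums was 4.17, 4.33 and 3.78 with DMSO and 3.51, 3.31 and 3.45 with THZ1. It was thus lower in each THZ1 library than in any DMSO library, with a gap between the treatments that was smaller than the spread among the DMSO libraries. IMPDH2 alone supplied at least 344 CPM of the de novo sum in every library.

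Promoter sequence is shown for 4 stretches, since they belong to neighbouring or functionally linked genes whose transcripts moved together or apart: the interval between PPAT and PAICS, which both fell, the stretches before GART and TYMS, which fell, and the stretch before DTYMK, which was higher although its enzyme acts just after thymidylate synthase. The sequences are from RefSeq on GRCh38.p14, 5′ to 3′ on the named strand, and capitals mark motif matches. The PPAT-PAICS interval (chr4:56435616-56435751, minus strand) holds 3 matches to the GC box GGGCGG, all on the opposite strand. The GART stretch (chr21:33542893-33543022, minus strand) holds 3 matches to CCAAT, one of which is on the opposite strand. The TYMS stretch (chr18:657593-657652, plus strand) holds 1 match to the E2F-type motif TTTCCCGC on the opposite strand. The DTYMK stretch (chr2:241686816-241686915, minus strand) holds 2 matches to CCAAT.
PPAT-PAICS: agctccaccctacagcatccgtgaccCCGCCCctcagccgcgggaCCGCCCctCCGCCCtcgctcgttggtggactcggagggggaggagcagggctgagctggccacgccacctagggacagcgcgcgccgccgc
GART: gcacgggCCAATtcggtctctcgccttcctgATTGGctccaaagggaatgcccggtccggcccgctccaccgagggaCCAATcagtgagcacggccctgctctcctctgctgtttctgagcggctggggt
TYMS: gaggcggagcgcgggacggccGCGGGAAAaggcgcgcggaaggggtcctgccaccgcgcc
DTYMK: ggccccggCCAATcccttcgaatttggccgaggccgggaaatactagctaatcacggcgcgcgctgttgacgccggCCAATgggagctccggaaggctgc

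In all, 5 motifs were searched on both strands of the RefSeq promoter windows (300 bases around a start, any window of a gene counting), which were found for 39 of the 41 genes, ADSL and IMPDH2 having no entry. TTTCCCGC and GGGCGG may share bases where they abut, and both were then counted. The E-box CACGTG, the core site of MYC, was present for 6 of 39 genes (PPAT, PAICS, ATIC, DHODH, AMPD2 and NME1), a share of 15.4% beside 12.5% of the promoters of tested genes. It was found for 4 of 27 genes that were lower and 2 of 12 that were not. CCAAT was present for 16 of 39 genes beside 42.4%, and GGGCGG for 84.6% beside 75.5%. TTTCCCGC was present for PRPS2, TYMS and DUT, 7.7% beside 3.2%, and TATAAA for GART and TK1, 5.1% beside 8.1%. For the E-box, the CCAAT box and the GC box the shares among the lower genes (14.8%, 40.7% and 85.2%) lay near those among the genes that were not lower (16.7%, 41.7% and 83.3%). The matches to the E2F-type motif (3 of 27) and to the TATA box (2 of 27) were all before lower genes and none before the other 12. Since 27 of the 39 genes were lower, matches this few cannot set the lower genes apart from the others. MYC itself, a transcription factor known to act on nucleotide synthesis genes, stood at 651, 608 and 657 CPM with DMSO and 78.6, 92.6 and 87.0 CPM with THZ1 (log2 fold change -2.89, SE 0.08, edgeR adjusted p = 3.15e-25). Whether its level bears on the members was not tested.

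PRPP, the sugar donor of both pathways and of base salvage, is made by PRPS1 and PRPS2. PRPS1 was at 101, 107 and 106 CPM with DMSO and 32.5, 37.4 and 37.3 CPM with THZ1, 2.93-fold lower (log2 fold change -1.55, SE 0.09, edgeR adjusted p = 5.32e-17). PRPS2 (chromosome X, 12809474 to 12842341, GRCh37) was at 10.7, 11.4 and 9.37 CPM with DMSO and 0.789, 1.11 and 1.20 CPM with THZ1, the latter from only 6, 8 and 9 counts. Its log2 fold change of -3.33 (SE 0.26, adjusted p = 4.14e-13) was the lowest of the 41 genes. Neither gene had overlapping libraries, as held for 84.7% of all genes tested.

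All 6 genes of IMP synthesis were lower with THZ1, by log2 fold changes between -1.85 and -1.18. PPAT, the amidotransferase of the committed step, was at 99.1, 99.7 and 88.5 CPM with DMSO and 28.8, 26.6 and 24.2 CPM with THZ1, the largest fall of the 6 (log2 fold change -1.85, SE 0.09, edgeR adjusted p = 4.46e-18). PAICS, which carries out a carboxylation and the step after it, lies head to head with PPAT on chromosome 4 (PPAT 57259528 to 57301781 and PAICS 57301907 to 57330744, GRCh37). It was at 434, 432 and 442 CPM with DMSO and 161, 154 and 158 CPM with THZ1 (log2 fold change -1.47, adjusted p = 3.94e-19). The neighbours thus fell together, PPAT by more.

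GART, a trifunctional enzyme that includes the folate-dependent glycinamide ribonucleotide transformylase, had the smallest fall of the 6. It was at 172, 182 and 165 CPM with DMSO and 76.5, 80.6 and 72.5 CPM with THZ1 (log2 fold change -1.18, SE 0.07, edgeR adjusted p = 1.94e-15). PFAS, the glutamine-using amidotransferase between the GART steps, had a log2 fold change of -1.33, ADSL, the adenylosuccinate lyase, one of -1.35, and ATIC, which closes the IMP ring, one of -1.69. In none of the 6 did a THZ1 library reach a DMSO library, where 84.7% of all genes tested had no overlap. GART kept the most of its DMSO level.

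Beyond IMP the genes separated. GMPS, the GMP synthetase, was at 139, 146 and 138 CPM with DMSO and 27.6, 26.7 and 25.5 CPM with THZ1, 5.29-fold lower (log2 fold change -2.40, SE 0.08, edgeR adjusted p = 5.65e-22). IMPDH1, one of the dehydrogenases that commit IMP to GMP, was at 139, 123 and 141 CPM with DMSO and 38.7, 42.2 and 43.7 CPM with THZ1 (log2 fold change -1.70, adjusted p = 3.78e-18). IMPDH2, the isoform known to dominate in proliferating lymphocytes, was at 368, 344 and 401 CPM with DMSO and 390, 375 and 377 CPM with THZ1. Its libraries overlapped, and its log2 fold change of 0.04 (SE 0.07, adjusted p = 0.62) turned to -0.21 with library sizes alone (adjusted p = 0.00321) and to 0.23 with upper quartile factors (adjusted p = 0.00274).

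On the AMP branch, ADSS, the adenylosuccinate synthetase of most tissues, was at 61.5, 65.1 and 54.2 CPM with DMSO and 17.5, 15.4 and 15.9 CPM with THZ1 (log2 fold change -1.89, SE 0.11, edgeR adjusted p = 9.78e-17). ADSSL1, its muscle isoform, was at 1.90, 1.97 and 1.77 CPM with DMSO and 6.71, 7.75 and 6.82 CPM with THZ1. It was the only de novo gene to rise (log2 fold change 1.91, SE 0.24, adjusted p = 1.2e-08). On the deposited log2 values, however, its change was 0.26 and did not pass limma's test (adjusted p = 0.0871).

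The 5 genes of UMP and CTP synthesis were all lower. CAD, the trifunctional protein that starts the ring, was at 240, 244 and 221 CPM with DMSO and 77.8, 83.5 and 81.8 CPM with THZ1 (log2 fold change -1.54, SE 0.07, edgeR adjusted p = 1.31e-18). DHODH, the mitochondrial dehydrogenase of the pathway, was at 22.2, 21.0 and 21.9 CPM with DMSO and 9.07, 10.8 and 9.09 CPM with THZ1, and its log2 fold change of -1.17 (SE 0.14, adjusted p = 2.72e-09) was the smallest fall of the 5. UMPS, which completes UMP, was at 60.6, 59.1 and 58.2 CPM with DMSO and 17.0, 20.8 and 18.9 CPM with THZ1 (log2 fold change -1.65, adjusted p = 7.16e-16). The 3 genes did not overlap between treatments, as held for 84.7% of all genes tested.

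Both CTP synthetases, which aminate UTP, fell to a similar degree. CTPS1, the form that activated lymphocytes need, was at 174, 189 and 190 CPM with DMSO and 41.6, 48.0 and 46.1 CPM with THZ1 (log2 fold change -2.03, SE 0.08, edgeR adjusted p = 1.14e-20). CTPS2 was at 14.2, 15.3 and 13.0 CPM with DMSO and 2.24, 3.46 and 3.34 CPM with THZ1 (log2 fold change -2.23, SE 0.20, adjusted p = 6.36e-12). The pyrimidine genes of de novo synthesis had a median log2 fold change of -1.65 over 5 genes, beside -1.47 over the 11 purine genes.

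**Figure D2:**
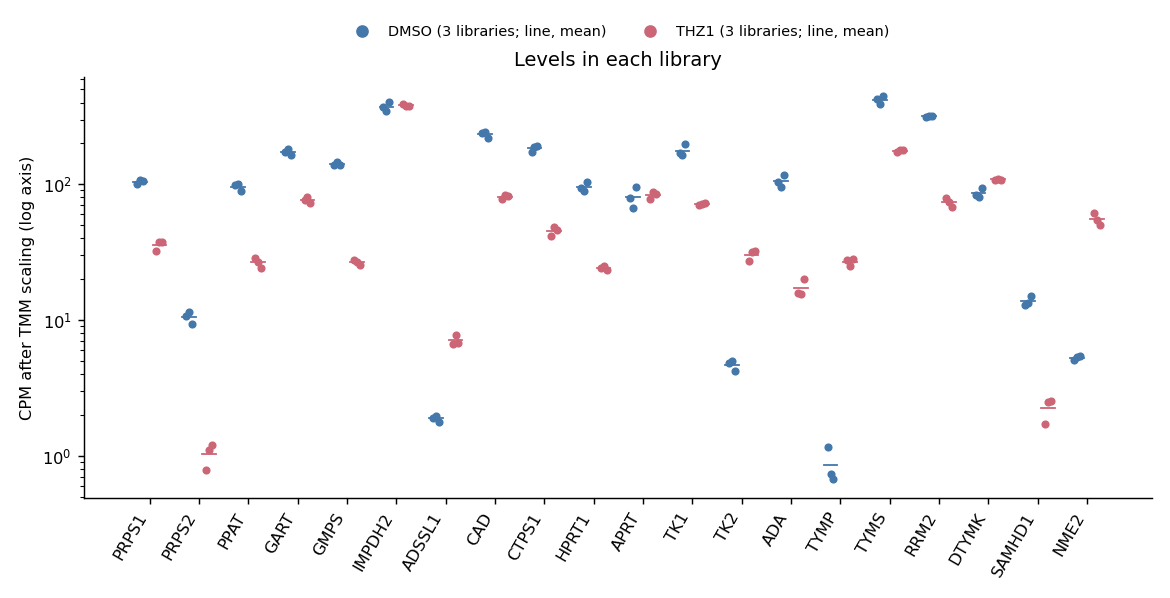
CPM after TMM scaling (vertical axis, logarithmic) is shown in each of the 3 DMSO and 3 THZ1 libraries for 20 of the 41 genes, with a line at each mean. TYMP rises from about 1 CPM to between 25.1 and 27.9 CPM and PRPS2 falls to between 0.789 and 1.20 CPM, while the points of IMPDH2 and APRT overlap between the treatments.

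Of the purine salvage genes, HPRT1 and ADK were lower and APRT did not pass the test. HPRT1, which recovers hypoxanthine and guanine (chromosome X, 133594195 to 133654543, GRCh37), was at 94.1, 89.5 and 103 CPM with DMSO and 24.2, 25.2 and 23.3 CPM with THZ1, 3.95-fold lower (log2 fold change -1.98, SE 0.09, edgeR adjusted p = 7.29e-19). ADK, the adenosine kinase, was at 69.4, 70.8 and 77.2 CPM with DMSO and 25.1, 23.1 and 16.2 CPM with THZ1 (log2 fold change -1.75, SE 0.11, adjusted p = 1.84e-15). APRT, which recovers adenine, was at 79.0, 67.1 and 95.5 CPM with DMSO and 78.0, 87.1 and 84.5 CPM with THZ1 (log2 fold change 0.05, SE 0.09, adjusted p = 0.652). Its THZ1 libraries lay within the range of its DMSO libraries, which had the wider spread (SD 14.3 against 4.68 CPM), and its direction depended on the setting. It passed as higher with upper quartile factors (log2 fold change 0.24, adjusted p = 0.0199) and without the third DMSO library (0.17, adjusted p = 0.0419). With library sizes alone it passed as lower (-0.20, adjusted p = 0.0468), and without the second DMSO library its change was -0.09 (adjusted p = 0.279).

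The pyrimidine salvage genes moved in opposite directions within each pair. UCK2, the uridine-cytidine kinase typical of tumour cells, was at 127, 126 and 131 CPM with DMSO and 41.4, 42.9 and 37.3 CPM with THZ1 (log2 fold change -1.66, SE 0.08, edgeR adjusted p = 3.07e-18). UCK1, its paralogue, was at 20.8, 22.0 and 21.5 CPM with DMSO and 35.4, 37.1 and 35.8 CPM with THZ1 (log2 fold change 0.75, SE 0.10, adjusted p = 6.7e-08). The per-library values of these kinases did not overlap between treatments, as held for 84.7% of all genes tested.

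TK1, the cytosolic thymidine kinase whose transcript follows the cell cycle, was at 171, 163 and 197 CPM with DMSO and 70.1, 71.3 and 73.0 CPM with THZ1 (log2 fold change -1.31, SE 0.08, edgeR adjusted p = 5.41e-16). TK2, the mitochondrial thymidine kinase (chromosome 16, 66541906 to 66586447, GRCh37), had 58, 61 and 50 counts with DMSO, a mean of 4.67 ± 0.40 CPM (SD, n = 3), and was at 27.4, 31.6 and 32.2 CPM with THZ1, 6.48-fold higher (log2 fold change 2.70, SE 0.14, adjusted p = 2.65e-17). TK2 shares 1106 exon bases, 10.7% of its exons, with ENSG00000261519 on the opposite strand, a long non-coding gene whose log2 fold change was 4.48. Because the strand setting of the counting is not given in the sources used here, reads from this gene and TK2 cannot be told apart in the shared bases.

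Among the breakdown genes, 1 was lower, 1 was higher and 3 did not pass the test. ADA, the adenosine deaminase (chromosome 20, 43213537 to 43280893, GRCh37), was at 105, 94.7 and 117 CPM with DMSO and 15.8, 15.6 and 19.9 CPM with THZ1, 6.16-fold lower (log2 fold change -2.62, SE 0.11, edgeR adjusted p = 1.83e-20). PNP, the purine nucleoside phosphorylase that acts after ADA, was at 194, 194 and 212 CPM with DMSO and 215, 207 and 212 CPM with THZ1 (log2 fold change 0.08, SE 0.07, adjusted p = 0.281). Its libraries overlapped, and it passed the test as lower with library sizes alone (log2 fold change -0.17, adjusted p = 0.0171) and as higher with upper quartile factors (0.27, adjusted p = 0.00051). The consecutive enzymes of this route therefore stood apart, ADA far below its DMSO level and PNP with THZ1 libraries at or above the DMSO median.

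TYMP, the thymidine phosphorylase (chromosome 22, 50964181 to 50968461, GRCh37), was at 1.16, 0.738 and 0.675 CPM with DMSO and 27.6, 25.1 and 27.9 CPM with THZ1. Its log2 fold change of 4.95 (SE 0.21, edgeR adjusted p = 3.76e-20), or 30.9-fold, was the highest of the 41 genes. TYMP shares 323 exon bases with ODF3B on the same strand, and ODF3B had a log2 fold change of 3.92. How reads in these shared bases were assigned was not tested. On the deposited log2 values the change of TYMP was 3.12, and that of TK2 was 1.60, both past limma's test.

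Neither AMP deaminase, which turn AMP into IMP, passed the test. AMPD2 was at 93.2, 89.6 and 95.6 CPM with DMSO and 103, 102 and 96.8 CPM with THZ1 (log2 fold change 0.12, SE 0.07, edgeR adjusted p = 0.137). Its libraries did not overlap, and it passed the test with relative log expression factors (log2 fold change 0.19, adjusted p = 0.0226). AMPD3 was at 2.23, 2.54 and 2.03 CPM with DMSO and 1.58, 1.52 and 1.87 CPM with THZ1 (log2 fold change -0.45, SE 0.32, adjusted p = 0.198), passing with library sizes alone (adjusted p = 0.046). At this level a change of that size was not detectable in the main comparison.

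Of the 6 genes that supply deoxynucleotides, 5 were lower and DTYMK was higher. RRM2, the cell cycle-dependent subunit of ribonucleotide reductase, was at 315, 319 and 317 CPM with DMSO and 79.0, 74.3 and 68.3 CPM with THZ1 (log2 fold change -2.10, SE 0.07, edgeR adjusted p = 4.93e-22). RRM1, the large subunit, was at 210, 216 and 219 CPM with DMSO and 83.1, 85.4 and 89.3 CPM with THZ1 (log2 fold change -1.32, adjusted p = 3.03e-17). The subunits thus both fell, RRM2 by more. SAMHD1, the hydrolase that degrades deoxynucleotides, had the largest fall of the 6, from 12.9, 13.4 and 15.1 CPM to 1.71, 2.49 and 2.54 CPM (log2 fold change -2.62, SE 0.21, adjusted p = 5.97e-13). DUT, which turns dUTP into dUMP, had a log2 fold change of -1.80.

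TYMS, the thymidylate synthase (chromosome 18, 657653 to 673578, GRCh37), was at 424, 392 and 446 CPM with DMSO and 172, 179 and 178 CPM with THZ1 (log2 fold change -1.25, SE 0.07, edgeR adjusted p = 5.59e-17). It shares 967 exon bases, 39.9% of its exons, with ENOSF1 on the opposite strand, which also fell (log2 fold change -1.74), so that reads of these genes cannot be told apart there. DTYMK, the thymidylate kinase that acts on the product of TYMS, was at 83.3, 81.2 and 93.8 CPM with DMSO and 108, 110 and 107 CPM with THZ1. It was 1.26-fold higher (log2 fold change 0.34, SE 0.08, adjusted p = 0.000184), but with library sizes alone the log2 fold change was 0.09 and did not pass the test (adjusted p = 0.264). The TYMS libraries stood far apart between treatments, whereas those of DTYMK were separated by a narrow gap.

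The 5 nucleotide kinases, which raise mono- and diphosphates to triphosphates, held the widest mixture of directions after the breakdown genes. NME2 was at 5.04, 5.33 and 5.40 CPM with DMSO and 61.0, 54.3 and 50.4 CPM with THZ1, 10.5-fold higher (log2 fold change 3.39, SE 0.12, edgeR adjusted p = 1.77e-21). NME1, its neighbour on chromosome 17, was at 15.3, 14.7 and 19.5 CPM with DMSO and 33.5, 29.1 and 24.2 CPM with THZ1 (log2 fold change 0.81, SE 0.13, adjusted p = 1.17e-06). Both share exon bases with the readthrough gene NME1-NME2 (638 bases of NME1 and 603 bases of NME2), which had 0 counts in every library. Reads that fall in these shared bases may have been left uncounted, and their part in the levels of NME1 and NME2 was not tested.

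NME7, a family member known from cilia and centrosomes, was lower, from 14.1, 14.3 and 15.6 CPM to 1.31, 2.21 and 2.54 CPM (log2 fold change -2.85, SE 0.22, edgeR adjusted p = 1.37e-13). The UMP-CMP kinase CMPK1 had a log2 fold change of -0.68 (adjusted p = 4.56e-10). GUK1, the guanylate kinase, was at 151, 139 and 178 CPM with DMSO and 196, 214 and 200 CPM with THZ1 (log2 fold change 0.38, SE 0.08, adjusted p = 4.58e-05). With library sizes alone the change of GUK1 was 0.14 and did not pass the test (adjusted p = 0.0888).

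Paralogous members were then compared within each library, since the ratio of their counts does not depend on library scaling. The log2 ratio of TK2 to TK1 counts was -5.14, -5.02 and -5.53 with DMSO and -1.36, -1.17 and -1.18 with THZ1, a change of 3.99 or 15.9-fold. The log2 ratio of ADSS to ADSSL1 went from a mean of 4.97 ± 0.06 (SD, n = 3) to 1.19 ± 0.20. The log2 ratio of UCK2 to UCK1 went from 2.58 ± 0.06 to 0.17 ± 0.09 and that of NME2 to NME1 from -1.63 ± 0.20 to 0.94 ± 0.10. These 4 pairs, in which a member rose, had the largest changes.

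Of the pairs in which no member rose, IMPDH2 to IMPDH1 went from a mean log2 ratio of 1.46 ± 0.05 to 3.20 ± 0.12 and PRPS2 to PRPS1 from a mean of -3.32 to -5.04. RRM2 to RRM1 changed by -0.78 and AMPD3 to AMPD2 by -0.54. In these 8 pairs the libraries of the treatments did not overlap, as held for 84.7% of all genes taken singly, and the exact two-sided permutation p was 0.1 in each, the smallest that 3 against 3 libraries can give (0.112 after Benjamini-Hochberg adjustment over the 9 pairs). The log2 ratio of CTPS2 to CTPS1, -3.70 ± 0.15 with DMSO and -3.90 ± 0.24 with THZ1, overlapped between treatments (exact permutation p = 0.3). No pair changed direction under the alternatives tried.

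**Figure D3:**
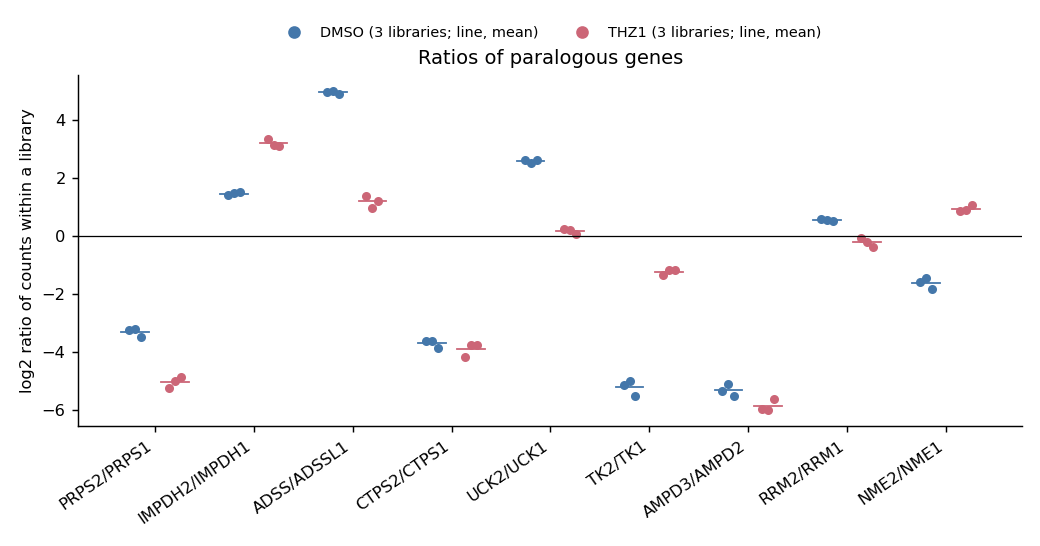
The log2 ratio of the counts of 2 paralogous genes within a library (vertical axis; counts are not corrected for gene length, and a line marks 0) is shown for 9 pairs in the 3 DMSO and 3 THZ1 libraries, with a line at each mean. The TK2 to TK1 ratio rises from -5.23 to -1.24 and the ADSS to ADSSL1 ratio falls from 4.97 to 1.19, while the points of CTPS2 to CTPS1 overlap.

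Levels per length were compared on the deposited log2 values, read as log2(FPKM + 1), which list 37 of the 41 genes (DHODH, TK1, AMPD3 and TYMS were not in that table). IMPDH2 had the highest level of the 37 with both treatments, at 8.62 ± 0.02 (SD, n = 3) with DMSO and 8.39 ± 0.01 with THZ1. Below it with DMSO came DUT at 7.92, HPRT1 at 7.43 and PAICS at 7.41, of which the last pair did not differ beyond their SDs (0.02 and 0.05). With THZ1 the order below IMPDH2 was PNP at 7.01, APRT at 6.88, DTYMK at 6.86 and GUK1 at 6.79, and the neighbours APRT, DTYMK and GUK1 lay within about 1 SD of each other. Among these 37, the genes that had ranked highest after IMPDH2 were thus replaced by genes that were not lower in the counts. TYMS and TK1, which were lower in the counts, are not in that table and were not ranked. In CPM per kb of annotated exons, TYMS had 174 with DMSO and 72.8 with THZ1, and TK1 had 96.0 and 38.7. On that measure IMPDH2 had 72.5 and 74.3, and APRT had 44.9 and 46.3.

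On the deposited log2 values, NME2 moved from rank 33 to rank 8 and passed NME1 (2.90 against 3.88 with DMSO, 5.79 against 4.48 with THZ1). TYMP moved from rank 37 to rank 22. At the foot of the order with THZ1 stood SAMHD1 at 0.27, NME7 at 0.45, PRPS2 at 0.48 and CTPS2 at 0.72. ADSSL1 at 1.37 with DMSO and 1.63 with THZ1 remained among the lowest genes with both treatments.

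The genes that were not lower spanned shorter stretches of the genome. The span of the canonical transcript had a median of 32.8 kb over the 28 lower genes (8.68 to 558 kb) and of 8.61 kb over the other 13 (2.59 to 52.3 kb). Under 10 kb lay 9 genes, of which RRM2 alone was lower and 5 were higher, while 26.6% of all protein-coding genes of that span were lower and 58.4% were higher. Between 20 and 50 kb, 15 of 17 genes were lower and 2 were higher, beside 53.3% and 29.6% of protein-coding genes. At 50 kb and over, 6 of 7 were lower and 0 were higher, beside 62.8% and 20.6%. TK2 at 42.1 kb and ADSSL1 at 23.1 kb were the higher genes of long span.

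Across genes, Spearman's rho between span and log2 fold change was -0.592 over the 41 genes and -0.351 over 11873 protein-coding genes. These values describe genes measured in the same 6 libraries, which are not independent replicates. In the 3 longer span classes the members' medians (-1.28 at 10 to 20 kb, -1.54 at 20 to 50 kb and -2.23 at 50 kb and over) lay below those of protein-coding genes of like span (0.04, -0.37 and -0.61). Under 10 kb the members' median was 0.38 beside 0.57.

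**Figure D4:**
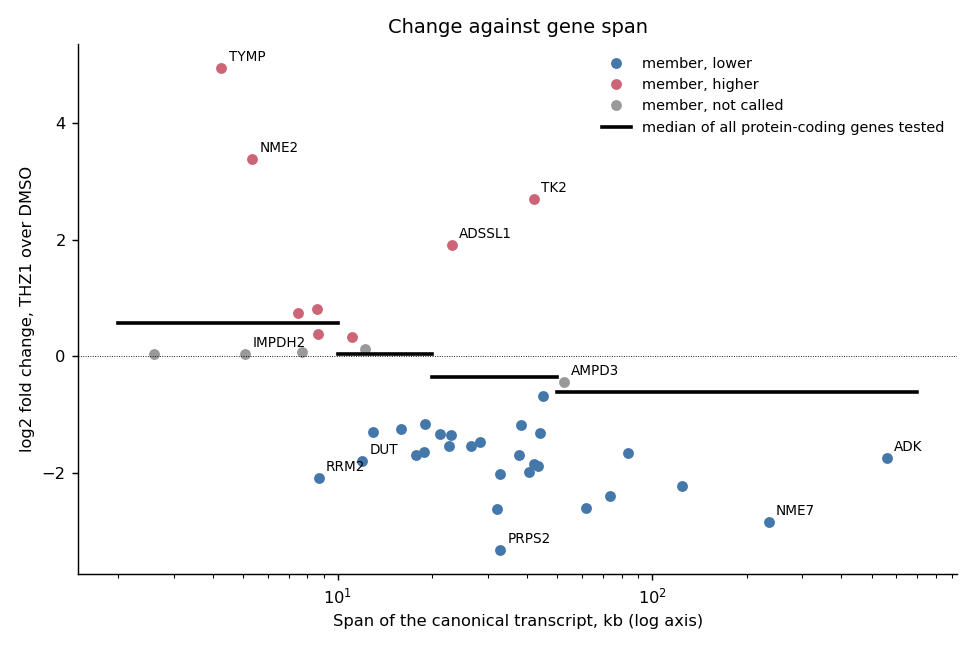
The log2 fold change of each of the 41 genes (vertical axis) is drawn against the span of its canonical transcript in kb (horizontal axis, logarithmic), coloured by call, with black lines at the median of all protein-coding genes tested in 4 span classes. The genes under 10 kb lie around or above 0 apart from RRM2 at -2.10, and the longer genes lie mostly below the black lines, with TK2 and ADSSL1 far above them and AMPD2, AMPD3 and DTYMK slightly above.

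Some members share annotated exon bases with other genes. This held for 18 of the 41, and for 14 of them the other gene had a mean of at least 10 counts. Of the 23 genes that share none, 18 were lower and 3 were higher. Thus 18 of the 28 lower genes share no annotated exon base with another gene, while others, such as ADA, DUT, RRM1, SAMHD1 and TYMS, do. Of the genes that rose, TK2, TYMP, NME1, NME2 and UCK1 share bases, UCK1 only 6, and ADSSL1, DTYMK and GUK1 share none. The share over all genes was not taken, and whether overlap bears on the direction of change was not tested.

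The rest of the pathway was read from a list of 55 further purine and pyrimidine genes, of which 37 were tested. Of these, 23 were lower (62.2%), 10 were higher (27%) and 4 did not pass the test, with a median log2 fold change of -0.70. Among protein-coding genes 47.6% were lower and 36.3% higher, and among all genes 41.1% and 43.5%. Past a log2 fold change of 1.5, 6 were lower (16.2%, beside 13.3% of protein-coding genes). In the other direction 2 were past it, where 15.3% of protein-coding genes were. PRPS1L1, MTAP, CDA, XDH, GDA and NT5C1A had 0 counts in every library, below the floor of 3 counts (0.246 to 0.415 CPM). Of the genes whose mean reached 10 CPM, the lowest was SLC29A1, the equilibrative nucleoside transporter that brings nucleosides to the salvage enzymes, at 124, 122 and 129 CPM with DMSO and 8.94, 10.4 and 9.89 CPM with THZ1 (log2 fold change -3.68, edgeR adjusted p = 9.57e-25). NT5C2, a cytosolic nucleotidase, followed with -2.25 and ENTPD1, an ectonucleotidase, with -1.70. Among the highest of the genes with a mean of at least 10 CPM were the deoxyribonucleotidase NT5C with 1.09 and the kinase NME3 with 0.90. Nucleotidases thus stood toward both ends of the genes of at least 10 CPM, none of which rose by 1.5 or more on the log2 scale. Below that level 2 genes rose by more. AK8 went from a mean of 0.856 to 6.80 CPM (log2 fold change 2.97) and AK1 from 1.61 to 7.72 CPM (2.25).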

How the data were processed

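RNA-SEQ libraries of NALM6 cells (3 DMSO, 3 THZ1, grouped by their labels) were read from tables the authors deposited. The deposited raw counts per gene were made by filtering reads, mapping to GRCh37 with STAR and counting with htseq-count, and annotation and strand setting are not given in the sources used here. The authors also deposited log2 values of FPKM from RSEM, read here as log2(FPKM + 1). In that table the sorted values of libraries of the same treatment differed by a median of at most 0.0017, and the step that makes them alike is not stated. The deposited p-value, FDR and log2 fold change columns hold the authors' own comparison and were not used.

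The 41 members, the roles and the other lists were chosen with earlier results of these data known. Counts were filtered with edgeR's filterByExpr (minimum count 10, minimum total 15), scaled by TMM and tested over all genes with edgeR's quasi-likelihood test (edgeR 4.0.16, R 4.3.3), two-sided, with adjustment after Benjamini-Hochberg. Genes were called at an adjusted p below 0.05, and a log2 fold change of 1.5 was used as a second threshold. On simulated counts with known changes, 189 of 193 changed genes and 5 unchanged genes were called. The planted log2 changes were 1.5 in size and balanced in direction, and all other genes were unchanged. The simulation therefore did not probe the scaling in data where 84.5% of genes were called. Ratios of paralogues used log2 of counts plus 0.5 and an exact permutation test. The text names the highest and lowest member of each role, both members of each pair, members whose call depends on a setting, MYC, and the 3 highest and 3 lowest genes of the further list with a mean of at least 10 CPM, of which 1 is not reported here. Other genes are named as exceptions or neighbours, a choice made after seeing their values. Positions, spans and exon overlaps came from GENCODE models on GRCh37. Alternatives were DESeq2 1.42.0, limma 3.58.1 on the deposited values, other scalings and filters, a replicate block and each library left out. No pair of libraries held identical values, and replicates differed by more than sampling noise.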

Additional observations from a re-analysis of the deposited data

How the results depend on the processing

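Of the 41 genes, 33 kept their direction and their side of the threshold in each of the 17 settings in which they were tested, which were 14 for DHODH, TK1 and TYMS and 16 for PRPS2 and TYMP. IMPDH2, ADSSL1, APRT, PNP, AMPD2, AMPD3, DTYMK and GUK1 did not. The number of lower genes ranged from 27 to 32 and of higher genes from 6 to 12. The median log2 fold changes of de novo, salvage and all members moved with the scaling: -1.53, -1.24 and -1.28 with relative log expression factors and with DESeq2, -1.40, -1.12 and -1.155 with upper quartile factors, -1.84, -1.55 and -1.595 with library sizes alone, and -1.70, -1.41 and -1.45 with library sizes without mitochondrial genes, a setting chosen after seeing the data. They were -1.46, -1.18 and -1.22 with at least 10 counts in every library (39 members) and -1.68, -1.40 and -1.44 with no filter. On the deposited values (37 members), limma gave -1.78, -0.94 and -1.63 with a pseudocount of 1 under both filters and -1.81, -0.97 and -1.67 with 0.1. Leaving out each library gave -1.63 to -1.55, -1.39 to -1.25 and -1.43 to -1.36. The de novo class confined to IMP and UMP synthesis had -1.47 and the extended salvage class -0.63. The sign changed for IMPDH2 (library sizes alone -0.21, without mitochondrial genes -0.069, no filter -0.050, limma -0.23 with either pseudocount, and -0.037 to 0.076 when each library was left out, the lowest without the second DMSO library), APRT (-0.20, -0.058, -0.041, -0.11 and -0.092 to 0.17 in the same order), PNP (-0.17, -0.028, -0.0083 and -0.12 for the first 4 of these) and AMPD2 (-0.13 with library sizes alone). The median of all genes shifted by 0.19 with upper quartile factors, by -0.25 with library sizes alone and by -0.26 to -0.31 in limma. Of all genes past a log2 fold change of 1.5, 65.6% were higher in the main comparison and 54.0% in limma with a pseudocount of 0.1. Their number was 6230, against 2999 under the filter of 10 counts and 9894 with no filter. Libraries of the same number did not deviate together (correlations -0.004, 0.000969 and 0.0206), beside -0.0178 to 0.017 for libraries of different number. The labels do not say whether libraries of the same number share a culture, and these values cannot tell. With the number as a replicate block, 28 members were lower, 8 higher and their median was -1.35, with 13967 genes called in all against 14050. Depth limits AMPD3 most, which had fewer than 3 CPM in every library.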
